A study of Rattus norvegicus with 11 samples.

Results

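The renal cortex of diabetic rats that had a Roux-en-Y gastric bypass (RYGB) was compared with that of diabetic rats that had a sham operation. The comparison rests on 5 of the 11 arrays of the series, taken by the group in the sample title: 2 arrays of the group labelled DM+RYGB and 3 of the group labelled DM+Sham. All 11 arrays carried total RNA from the renal cortex of SD rats, labelled with Cy3. Both diabetic groups received streptozotocin (STZ), which damages the insulin-producing cells of the pancreas and is labelled as a model of type 1 diabetes. Surgery followed 4 weeks later, and the cortex was taken 4 weeks after surgery. The 3 Control+Sham and 3 Control+RYGB arrays came from rats without diabetes operated on in the same way; they entered the estimate of the spread and served as a reference. The labels do not say whether the numbered samples of a group are separate animals, so p-values measure only the spread between these samples. They also give no body weight, blood glucose, feeding state or hour of collection.

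RYGB joins a small gastric pouch to the jejunum, so that food no longer passes through most of the stomach or the duodenum. The renal cortex consists largely of proximal tubules, whose brush border takes glucose, amino acids, phosphate, bicarbonate, peptides and filtered proteins back from the urine. The same cells make glucose, burn fatty acids and secrete drugs and organic anions. Further along the nephron, the thick ascending limb, the distal convoluted tubule and the connecting tubule set the excretion of salt, calcium and magnesium, and the collecting duct sets that of water, potassium and acid.

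Levels are given on the log2 scale as the signal of a gene relative to the 75th percentile of all spots on the same array that are no controls. A level of 0 is thus a bright probe and -8 a very dim one, and a level is never compared between genes. A change is the mean of DM+RYGB minus the mean of DM+Sham, with its standard error (SE) from limma. DM+Sham 2 and 3 differed by a spread of 0.0155, less than the noise between repeated spots on either array (0.0529 and 0.0496), and were counted as 1 sample, so each group held 2 samples. DM+RYGB 1 and 2 differed by 0.29, against 0.0874 to 0.0895 between DM+Sham 1 and the other two. The 75th percentile of raw signal was lower on both DM+RYGB arrays (1606 and 1614) than on the DM+Sham arrays (2310 to 3600). After scaling to that percentile the median gene was 0.566 higher in DM+RYGB, and after quantile scaling it was -0.06. This shift lay mostly among dim genes, with medians of 1.73 in the dimmest 10% of genes and 0.098 in the brightest. For that reason a gene was called higher or lower when its adjusted p was below 0.05 in the same direction under 3 scalings (75th percentile, median and quantile) and both DM+RYGB arrays lay beyond all 3 DM+Sham arrays. A called gene is thus without overlap between the groups by rule, so statements below that its arrays do not overlap add no support. The change under quantile scaling is given beside that of many genes. Only DM+RYGB 1 and DM+Sham 3 were scanned on the same day. DM+RYGB 2 held a slide position that no other array held, while DM+RYGB 1 held the same position as the DM+Sham arrays.

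DM+RYGB 2 carried heart muscle transcripts. Summed over 28 heart muscle markers, the signal was 662 times the 75th percentile on that array, 10.6 on DM+RYGB 1 and 3.38 to 4.49 on the DM+Sham arrays, and 23 markers were more than 3 log2 units higher on DM+RYGB 2 than on DM+RYGB 1. Myh6, the atrial myosin heavy chain, stood at 5.89 on DM+RYGB 2 and -4.57 on DM+RYGB 1. Nppa, the atrial natriuretic peptide, read -0.84 against -6.00, and Acta1, the skeletal muscle actin, -0.61 against -4.34. Red blood cell markers summed to 11.4 on DM+RYGB 1 and 115 on DM+RYGB 2, on either side of the DM+Sham arrays (65.1 to 79.5). Urothelial markers summed to 9.91 and 7.71 in DM+RYGB and to at most 2.57 in DM+Sham, and podocyte markers to 79.2 and 69.1 against 43.5 to 45.1. Endothelial markers (36.0 to 39.6) overlapped between the groups. Because of DM+RYGB 2, the fits were also run without it, and what changed is given for many lists and genes below.

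**Figure D1:**
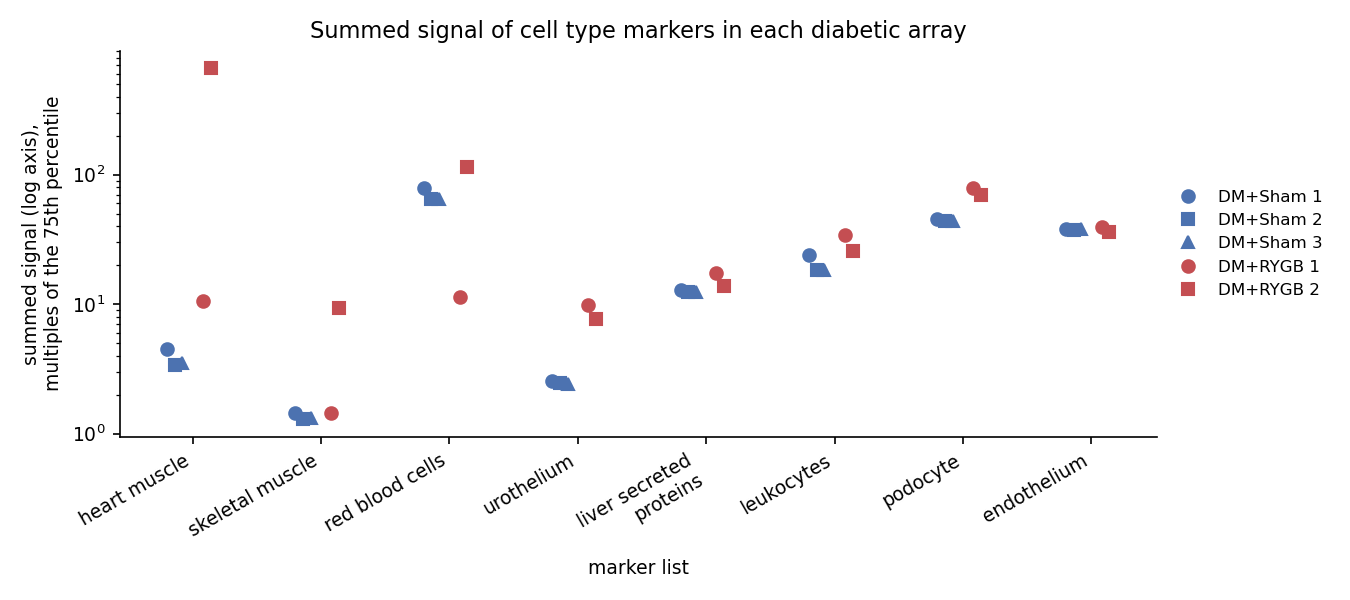
Summed signal of 8 lists of cell type markers (horizontal axis) on each of the 5 diabetic arrays (points; blue DM+Sham, red DM+RYGB), in multiples of the array's 75th percentile on a log axis. The heart muscle sum is 662 on DM+RYGB 2 and at most 10.6 on the other 4 arrays, while the podocyte and urothelial sums are higher on both DM+RYGB arrays than on any DM+Sham array.

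Of 25250 genes tested, 2632 (10.4%) were higher and 2761 (10.9%) lower after RYGB in diabetic rats. Among the 14358 genes with a symbol, 1007 (7.01%) were higher and 2022 (14.1%) lower; these shares are the background for the gene lists that follow. The split depended on the scaling: the median alone called 4426 higher and 7340 lower, quantile scaling alone 3653 and 5822, and the 75th percentile alone 10576 and 2763. Without DM+RYGB 2 the counts over all genes were 2835 and 3106, and without DM+RYGB 1 they were 2523 and 3379. Leaving out DM+Sham 1 took the count of lower genes to 1834, and leaving out the averaged pair DM+Sham 2 and 3 gave 1607 higher and 1601 lower. Calls of lower genes were more frequent among bright genes: of the 5145 genes with a symbol in the top 3 deciles of signal, 25.0% were lower and 3.69% higher.

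Genes of the proximal tubule were lower in large number. Over 6 lists of its carriers, brush border enzymes and endocytic proteins, 67 of 144 measured genes (46.5%) were lower after RYGB and 1 was higher. The median change was -0.44, or -0.83 with quantile scaling, beside 0.377 and -0.14 for all genes with a symbol. Among the 95 of these genes in the top 3 deciles of signal, 53.7% were lower, beside the 25.0% above. The count of lower genes was 67 without DM+RYGB 2 and 77 without DM+RYGB 1. It was 54 without DM+Sham 1 and 40 when only the diabetic groups were fitted. In whole cortex, fewer cells of a type and less RNA per cell cannot be told apart.

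**Figure D2:**
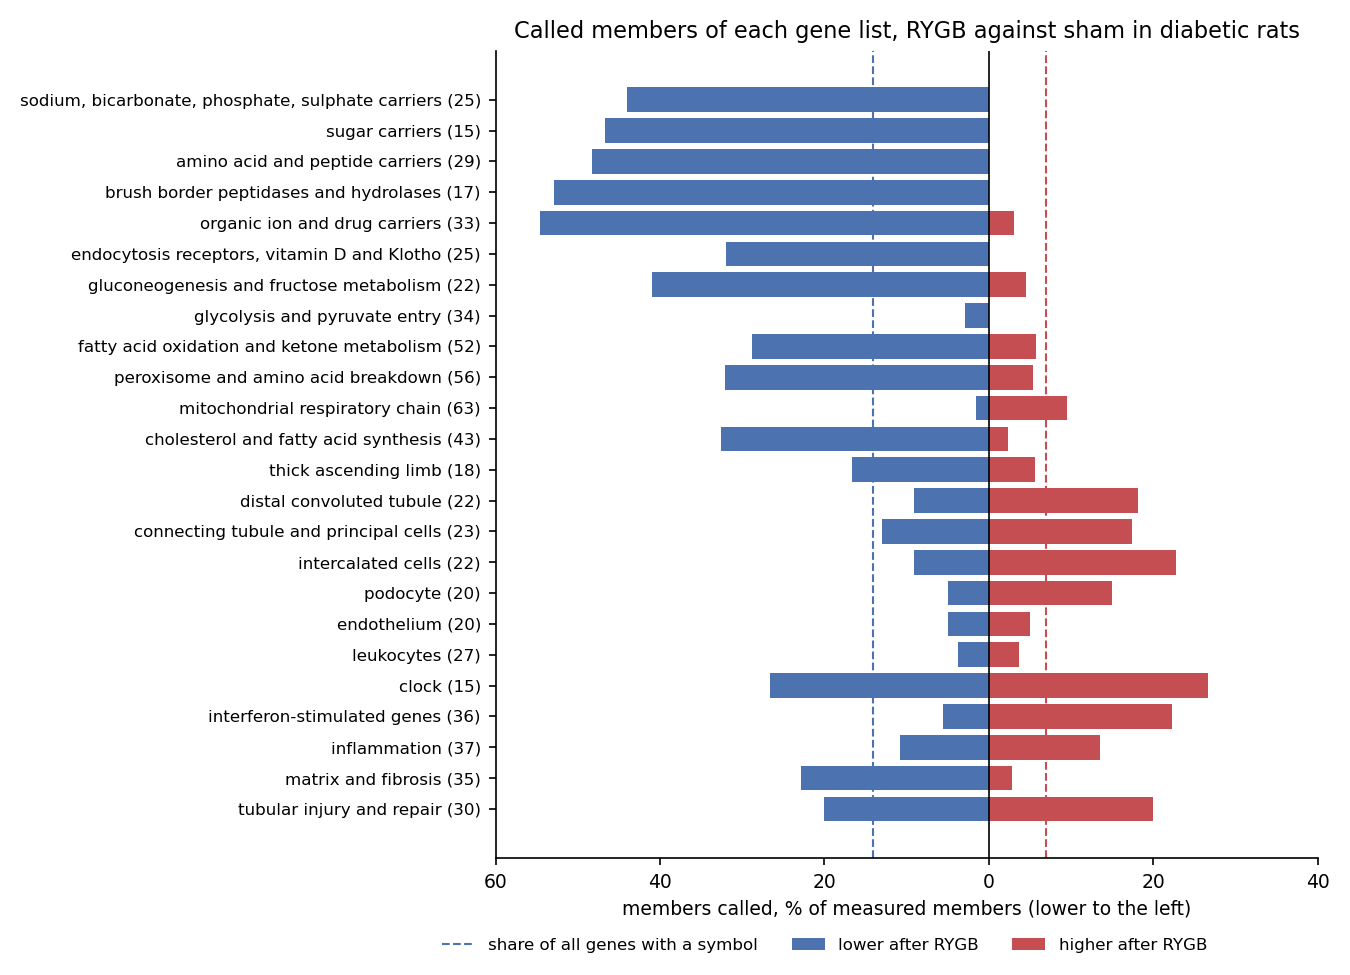
Share of measured members of 24 gene lists (vertical axis, number measured in brackets) called lower (blue, to the left) or higher (red, to the right) after RYGB in diabetic rats, in percent. Dashed lines mark the shares of all genes with a symbol, 14.1% lower and 7.01% higher; the proximal tubule lists at the top lie left of the lower line, and those of the distal convoluted tubule, principal and intercalated cells, but not of the thick ascending limb, reach right of the higher one.

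Sugar carriers fell at both faces of the proximal cell, 7 of 15 measured members being lower and none higher. Slc5a2 encodes SGLT2, the sodium-glucose carrier that takes up most filtered glucose. It read 4.10, 4.12 and 4.12 in DM+Sham and 2.94 and 2.31 in DM+RYGB, a change of -1.48 ± 0.22 (SE; adjusted p = 0.0029; -1.79 with quantile scaling). The groups did not overlap, and DM+RYGB also lay below the Control+Sham arrays at 4.36, 4.45 and 4.10. Pdzk1ip1, which encodes the MAP17 protein that SGLT2 needs for activity, changed by -1.60 ± 0.17. Slc5a1, the high-affinity carrier SGLT1 of the later proximal tubule, changed by -1.10 ± 0.13. The basolateral glucose exit carrier Slc2a2 (GLUT2) changed by -3.70 ± 0.21, from levels of 2.69 to 2.83 to -0.65 and -1.23, and the mannose and fructose carrier Slc5a10 by -2.64 ± 0.16. Slc2a12 (-1.04) and the inositol carrier Slc5a11 (-0.86) also fell, the latter not without DM+Sham 1. A second probe of Slc2a12 changed by -0.17. Slc2a1, the widely expressed GLUT1, was not called (0.38 ± 0.20, adjusted p = 0.15), nor were the fructose carrier Slc2a5 (-0.40), which was called lower without DM+RYGB 1, and the urate carrier Slc2a9 (-0.40). The osmolyte carrier Slc5a3, which takes up inositol, read 2.07 and 0.56 in DM+RYGB and 0.08, -1.10 and -1.13 in DM+Sham; it was called without DM+RYGB 2 but not with both arrays.

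Carriers of sodium, bicarbonate, phosphate and sulphate followed, with 11 of 25 members lower and none higher. Slc4a4, the basolateral sodium-bicarbonate exit route NBCe1, read 3.89, 4.02 and 4.00 in DM+Sham and -0.10 and 0.09 in DM+RYGB, a 15.5-fold lower mean. Slc5a12 (-4.13 ± 0.25) and Slc5a8 (-2.63 ± 0.17), the low- and high-affinity lactate carriers, fell as well. Dimmer probes changed by less, Slc4a4 by -2.50 and Slc5a12 by -2.72. The water channel Aqp1, which is abundant in proximal tubule and thin limb, read 4.19, 4.28 and 4.26 against 2.78 and 2.59, a change of -1.55 ± 0.12. The arrays of the groups stood well apart for each of these genes. Falls were also called for the sulphate carriers Slc13a1 (-1.76 ± 0.20) and Slc26a1 (-1.25 ± 0.22), the phosphate carrier Slc34a3 (-1.58 ± 0.29) and the membrane carbonic anhydrase Car4 (-1.06 ± 0.14). The vitamin C carrier Slc23a1 (-1.03) was called with all arrays but not without DM+RYGB 2 or without DM+Sham 1. Slc9a3, the sodium-proton exchanger NHE3, changed by -1.07 ± 0.17 on its brighter probe, while another probe changed by 2.06. Not every bright carrier fell. Slc34a1, the main phosphate carrier of the brush border, read 4.74, 4.40 and 4.42 in DM+Sham and 5.53 and 4.53 in DM+RYGB, and the groups overlapped (0.45 ± 0.35, adjusted p = 0.31). The sodium pump subunit Atp1b1 (1.08) and the dicarboxylate carrier Slc13a3 (-0.39) were not called either.

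**Figure D3:**
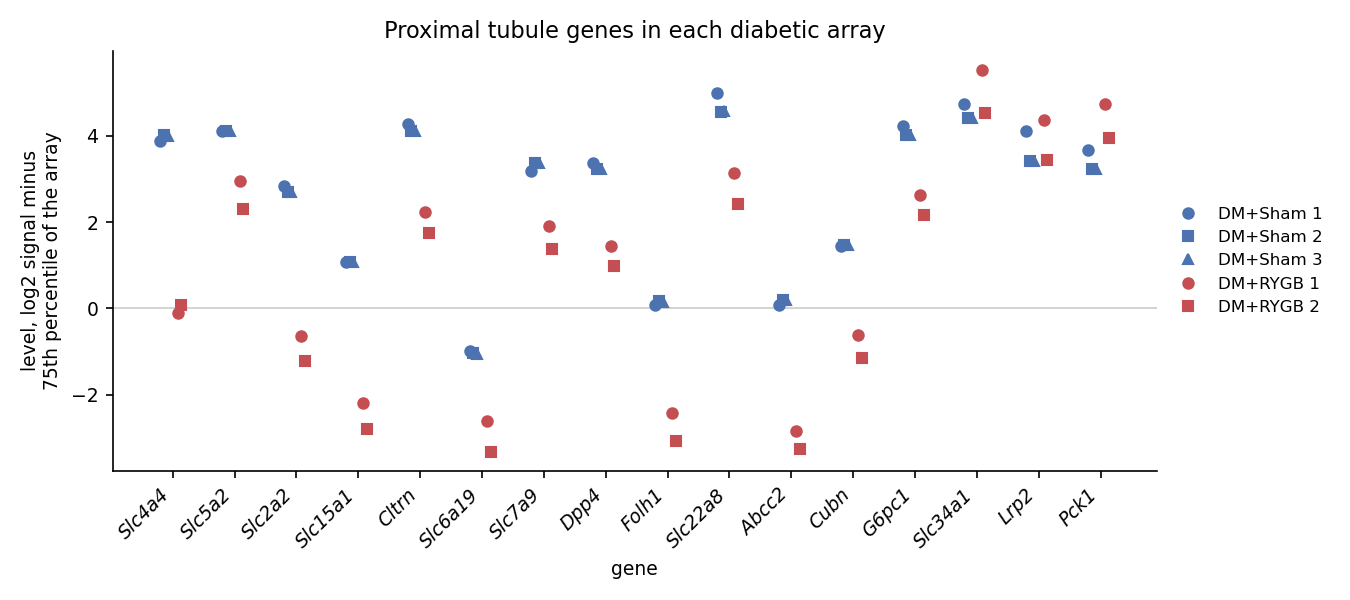
Level of 16 proximal tubule genes (horizontal axis) on each of the 5 diabetic arrays (points), as log2 signal minus the 75th percentile of the array. For the first 13 genes both DM+RYGB arrays (red) lie below all 3 DM+Sham arrays (blue), whereas Slc34a1, Lrp2 and Pck1 at the right do not fall; DM+RYGB 1 reads 5.53, 4.35 and 4.73 for them.

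Amino acid and peptide carriers counted 14 lower members of 29 and none higher. Slc15a1, the proton-coupled carrier PEPT1 for small peptides, had the largest fall of this list. It read 1.07, 1.06 and 1.08 in DM+Sham and -2.19 and -2.79 in DM+RYGB, a change of -3.56 ± 0.20 (adjusted p = 0.0002; -4.00 with quantile scaling), or 11.8-fold lower. The 3 sham arrays lay within a few hundredths of each other and far above both RYGB arrays. These values come from the brightest probe, and dimmer probes of Slc15a1 changed by -2.1 and -1.8. Its partner Slc15a2 (PEPT2), which takes up peptides in the later proximal tubule, changed by -1.87 ± 0.14. Slc6a19, the neutral amino acid carrier B0AT1 whose loss causes Hartnup disorder, read -0.99, -1.03 and -1.05 against -2.62 and -3.32, a change of -1.96 ± 0.22. Cltrn encodes collectrin, which brings B0AT1 to the brush border; it read 4.28, 4.10 and 4.12 against 2.23 and 1.74, a change of -2.21 ± 0.21. The mean of Slc6a19 was 3.88-fold lower and that of Cltrn 4.62-fold lower, without overlap. Slc6a18 (-1.21 ± 0.20), a glycine carrier that also needs collectrin, fell in the same arrays.

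The cystine carrier is built of a light chain and a heavy chain, and only the former fell. The light chain gene Slc7a9 read 3.19, 3.36 and 3.36 in DM+Sham and 1.91 and 1.38 in DM+RYGB, a change of -1.63 ± 0.21. The heavy chain gene Slc3a1 read 5.04, 4.39 and 4.41 against 5.92 and 5.23 and was not called (0.86 ± 0.34, adjusted p = 0.069). At the basolateral face, the light chains Slc7a7 (-2.27 ± 0.19) and Slc7a8 (-2.23 ± 0.15), through which amino acids leave the cell, were lower. The glutamate carrier Slc1a1 (-0.85 ± 0.18) fell, and Slc1a5 (-0.56 ± 0.16) fell with both RYGB arrays but not without DM+RYGB 2 or without DM+Sham 1. In control rats after RYGB 2 members of this list were higher and 3 lower, beside 6.93% and 5.49% of all genes.

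Brush border peptidases, which cut peptides in the lumen so that their parts can be taken up, had 9 lower members of 17. Folh1, a carboxypeptidase that releases glutamate from folates and peptides, read 0.08, 0.16 and 0.15 in DM+Sham and -2.43 and -3.08 in DM+RYGB, 7.34-fold lower. Dpp4, the peptidase that inactivates incretins, read 3.36, 3.23 and 3.24 against 1.43 and 0.99, a change of -2.09 ± 0.16; a second probe changed by -1.20. The sham and RYGB arrays were clearly separated for both. Aminopeptidase P (Xpnpep2, -2.04 ± 0.22), the meprin subunits Mep1a (-1.57 ± 0.22) and Mep1b (-1.39 ± 0.29), Mme (neprilysin, -0.82 ± 0.20) and Enpep (aminopeptidase A, -0.73 ± 0.12) also fell; Mme lost its call without DM+Sham 1. Anpep (-0.46) was not called, except without DM+RYGB 1, nor was the glutathione-cleaving enzyme Ggt1 (-0.12), which read 3.44, 3.05 and 3.04 against 3.56 and 2.70.

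Organic ion and drug carriers gave 18 lower members of 33. Slc22a8 encodes OAT3, a basolateral entry route for organic anions and many drugs. It read 4.99, 4.55 and 4.57 in DM+Sham and 3.14 and 2.41 in DM+RYGB, a change of -2.0 ± 0.42 (adjusted p = 0.009; -2.33 with quantile scaling). Slc22a6, the other main entry route OAT1, read 4.69, 4.42 and 4.40 against 4.72 and 3.94 and was not called (-0.22 ± 0.31). At the luminal exit, the multidrug pump Abcc2 read 0.07, 0.19 and 0.20 against -2.84 and -3.25, 9.05-fold lower, and Abcb1b (P-glycoprotein) changed by -2.80 ± 0.12. The proton-driven exit route for cations, Slc47a1 (MATE1), read 0.57, 0.67 and 0.61 against -1.33 and -1.88, a change of -2.21 ± 0.19. All of these but Slc22a6 were called, which requires that the groups do not overlap. Slc22a7 (-2.91 ± 0.21), Slc22a13 (-2.0 ± 0.21), Slc22a25 (-1.88 ± 0.21), Slc17a1 (-2.59 ± 0.25) and Slco4c1 (-2.10 ± 0.29) fell too. The cation entry carrier Slc22a2 (OCT2) did not: DM+RYGB 1 read 1.39 and DM+RYGB 2 -0.24, above -0.94, -1.82 and -1.82 in DM+Sham, and it was called higher without DM+RYGB 2 but not with both. The only member called higher was the organic anion carrier Slco1a1, at -6.97, -6.77 and -6.83 in DM+Sham and -0.64 and -1.24 in DM+RYGB (61.8-fold). Slco4a1 fell by as much in control rats after RYGB as in diabetic rats, from -0.95, -0.93 and -0.93 to -4.21 and -4.66 in the latter (-3.50 ± 0.16, and -3.70 in control rats; difference 0.20 ± 0.21, adjusted p = 0.54).

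Endocytic uptake and vitamin D handling had 8 lower members of 25 and none higher. Megalin (Lrp2) and cubilin (Cubn) are the receptors that retrieve filtered proteins, and Amn and Dab2 are their partners at the membrane and in the coated pit. Cubn changed by -2.35 ± 0.18, Amn by -1.17 ± 0.17 and Dab2 by -0.90 ± 0.23, the last not without DM+Sham 1. Lrp2 read 4.11, 3.41 and 3.42 in DM+Sham and 4.35 and 3.45 in DM+RYGB and was not called (0.14 ± 0.42); a second probe changed by -0.78. The endosomal chloride-proton exchanger Clcn5, mutated in Dent disease, changed by -1.04 ± 0.17 but turned to 0.40 with normexp background correction. Kl, which encodes Klotho, the coreceptor for FGF23, changed by -0.85 ± 0.24, and the vitamin D receptor Vdr by -0.86 ± 0.30; neither was called without DM+RYGB 2 or without DM+Sham 1, and Vdr not without DM+Sham 2. The vitamin D-degrading enzyme Cyp24a1 fell in diabetic rats (-1.75 ± 0.29) and in control rats (-1.67) after RYGB. Cyp27b1, which activates vitamin D, was not called in diabetic rats (0.83 ± 0.13, and 0.33 with quantile scaling) but rose by 4.02 in control rats. The difference between diabetic and control rats in the change after RYGB passed the test.

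Genes of glucose production fell in part. Of 22 genes of gluconeogenesis and fructose metabolism, 9 were lower and 1 higher. G6pc1, the glucose-6-phosphatase of the last step, read 4.23, 4.01 and 4.02 in DM+Sham and 2.62 and 2.17 in DM+RYGB, a change of -1.73 ± 0.21 (-2.02 with quantile scaling). Pyruvate carboxylase (Pc, -1.22 ± 0.18), Fbp2 (-1.27 ± 0.17), the alanine aminotransferase Gpt (-1.11 ± 0.17) and sorbitol dehydrogenase (Sord, -0.80 ± 0.21) were lower as well, Sord not without DM+Sham 1. The middle steps did not follow. Pck1, the PEP carboxykinase often taken as the pace-setting step, read 3.66, 3.23 and 3.22 against 4.73 and 3.95 and was not called (0.90 ± 0.30; 0.38 with quantile scaling). Fbp1 read 5.81, 5.17 and 5.18 against 5.76 and 5.14, with overlap. Of 34 genes of glycolysis and pyruvate entry, only Pfkp was called (-0.63); without DM+RYGB 2, 4 were lower, and without DM+RYGB 1, 5 were higher and 2 lower. Pdk4, which turns off pyruvate entry, read -3.47 on DM+RYGB 1 and -0.48 on DM+RYGB 2, on both sides of -0.83, -0.84 and -0.80 in DM+Sham. It was thus called lower without DM+RYGB 2 and not with both arrays.

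Fatty acid oxidation and ketone genes were lower in 15 and higher in 3 of 52, and the counts moved when either DM+RYGB array was left out. The median change of the list was -0.09, and -0.24 without DM+RYGB 2, beside 0.57 and 0.61 for all genes tested. That reference is raised by dim genes. Among genes with a symbol the median was 0.377. In their top 3 deciles of signal it was -0.04, and 25.0% were lower. Many genes of this list are targets of the fatty acid receptor PPARalpha, encoded by Ppara, which itself changed by -0.76 ± 0.16. Ehhadh, the peroxisomal bifunctional enzyme, read 1.93, 1.88 and 1.90 in DM+Sham and 0.50 and 0.03 in DM+RYGB, a change of -1.65 ± 0.16. The groups did not overlap. Cpt1a, the gate for entry of long-chain fatty acids into mitochondria, changed by -1.0 ± 0.11. The lipase inhibitor Angptl4 (-2.86 ± 0.15), the omega-hydroxylase Cyp4a1 (-2.80 ± 0.22), the pantetheinase Vnn1 (-3.33 ± 0.30) and the acyl-CoA synthetase Acsm5 (-1.98 ± 0.25) fell further. A second probe of Acsm5 changed by -0.28. Against this direction, the liver-type fatty acid binding protein Fabp1 was 7.33-fold higher, and it rose in control rats too (2.26).

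Amino acid breakdown and peroxisomal genes had 18 lower and 3 higher members of 56. Acmsd, which diverts tryptophan away from NAD synthesis, read 2.06, 2.08 and 2.07 in DM+Sham and 0.37 and -0.17 in DM+RYGB, a change of -1.97 ± 0.19. Kynu, a kynureninase further up the same route, changed by -1.48 ± 0.19, whereas Tdo2, the dioxygenase that opens it, was 3.90-fold higher at a low level (-6.26 to -6.22 against -4.03 and -4.53); its call was lost without DM+Sham 1. Serine dehydratase (Sds, -1.91 ± 0.18) and argininosuccinate synthase (Ass1, -1.74 ± 0.28), which feeds arginine synthesis in the kidney, also fell. Gatm, the first enzyme of creatine synthesis, changed by -0.77 ± 0.15 on its brighter probe and -0.27 on another. The polyamine enzymes Sat1 (1.88 ± 0.28) and Smox (2.05 ± 0.20) rose. Of 13 genes of ammonia and glutamine handling 5 were lower, among them the potassium channel Kcnj15 (-1.92 ± 0.23). None was higher.

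Of 63 respiratory chain genes 6 were higher and 1 lower, beside 7.01% and 14.1% of all genes with a symbol. This balance turned with the array: without DM+RYGB 2, the array with the heart muscle transcripts, 3 were higher and 7 lower, and without DM+RYGB 1 the counts were 8 and 0. Cox7c, a subunit of cytochrome oxidase, read 0.94 and 1.47 in DM+RYGB and -1.02, -2.66 and -2.65 in DM+Sham. Cycs (cytochrome c) rose by 1.61 ± 0.25 and the ATP synthase subunit Atp5pd by 1.52 ± 0.19. Sdhb (1.32 ± 0.23), a subunit of succinate dehydrogenase, was not called without DM+RYGB 2. Cytosolic ribosomal proteins had 7 higher members of 54 and 1 lower, but only 4 higher without DM+RYGB 2 and 2 without DM+RYGB 1. Called higher with all arrays were Rps24 (2.50 ± 0.42) and Rplp1 (1.99 ± 0.32). As in Cox7c, DM+Sham 1 lay between the other sham arrays and DM+RYGB for Rps24, which read 1.80 there, 0.61 and 0.62 on DM+Sham 2 and 3, and 3.96 and 3.47 in DM+RYGB. In control rats after RYGB 5 respiratory chain genes and 4 ribosomal protein genes were higher, where 6.93% of all genes were, and no member of either list passed the test of the difference between diabetic and control rats.

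Of 36 nephron transcription factors and nuclear receptors, 10 were lower and 3 higher. Hnf4a, a nuclear receptor needed for proximal maturation, read -1.22, -1.21 and -1.24 in DM+Sham and -1.76 and -2.23 in DM+RYGB, a change of -0.77 ± 0.16 (-1.16 with quantile scaling). Maf (-1.23 ± 0.21), Osr2 (-1.44 ± 0.24), Pax8 (-0.74 ± 0.13), Klf15 (-0.69 ± 0.14) and Cebpa (-0.76 ± 0.13) were lower. The dim factors Osr2 and Cebpa turned positive with normexp correction. Higher were Lhx1 (1.60 ± 0.26), Nr3c2, the mineralocorticoid receptor (1.17 ± 0.16), and the xenobiotic receptor Nr1i3 (2.10 ± 0.16 on its brighter probe, -1.02 on another). Lhx1 and Nr3c2 lost their calls without DM+Sham 1, and Nr3c2 also without DM+RYGB 1.

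Genes of the distal nephron had calls in both directions. Over 4 lists from the thick ascending limb to the intercalated cells, 14 of 85 genes (16.5%) were higher and 10 (11.8%) lower, beside 7.01% and 14.1%. Their median change was 0.63, or 0.23 with quantile scaling. Without DM+RYGB 2, 26 were higher and 8 lower, and without DM+RYGB 1 there were fewer higher (13) than lower (16) genes. In control rats after RYGB 2 were higher and 10 lower, beside 6.93% and 5.49% of all genes.

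**Figure D4:**
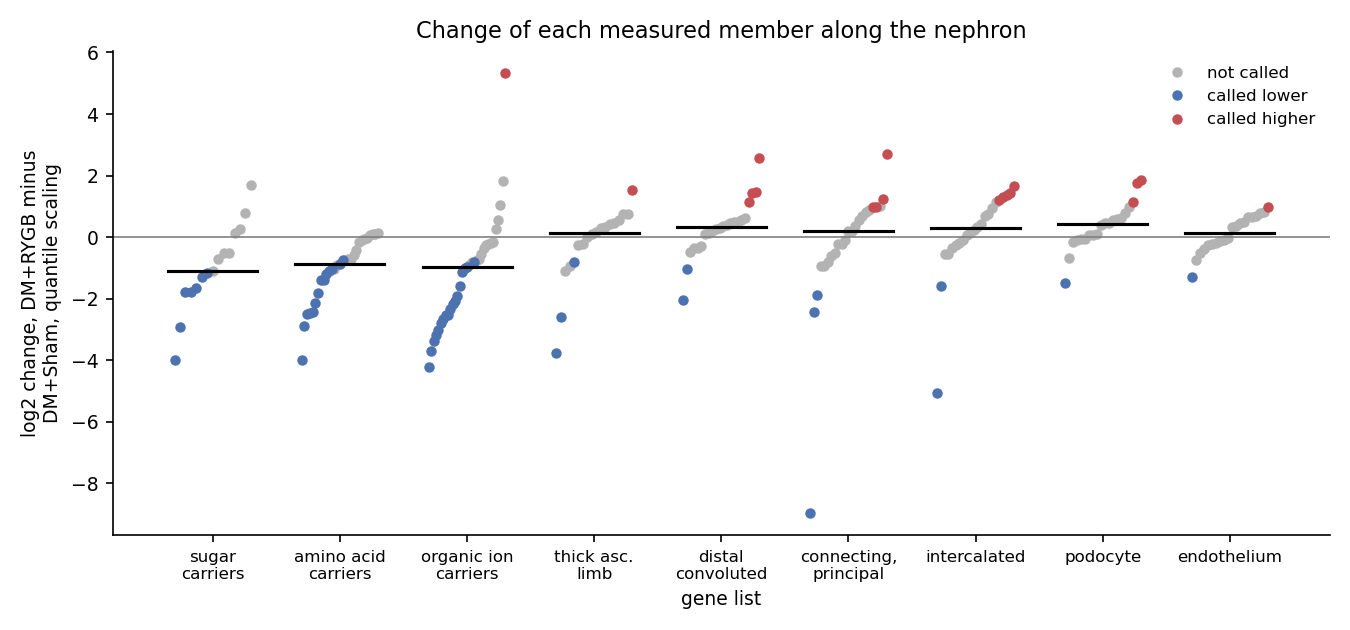
Change after RYGB in diabetic rats (vertical axis, log2 with quantile scaling) of each measured member of 9 lists along the nephron, with the median of each list as a black line; colours give the calls. The medians of the 3 proximal carrier lists lie between -1.09 and -0.88, while those of the distal, podocyte and endothelial lists lie between 0.14 and 0.42.

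In the thick ascending limb, Egf was the 1 member called higher of 18. Epidermal growth factor is made by this segment and the early distal tubule and is shed into the urine. It read 2.95, 2.87 and 2.87 in DM+Sham and 5.56 and 4.69 in DM+RYGB, a change of 2.22 ± 0.28 (1.52 with quantile scaling), and a second probe changed by 2.50. Control+Sham arrays read 3.13 to 3.40, so the RYGB arrays were above every other group. Uromodulin (Umod), the most abundant urinary protein of this segment, read 5.54, 4.83 and 4.84 against 7.06 and 6.07 but was not called (1.38 ± 0.45; 0.32 with quantile scaling). The calcium-blocking claudin Cldn14 (-2.62 ± 0.14) fell, though it turned to 0.52 with normexp correction. Slc12a1, the target of loop diuretics, was not analysed here.

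In the distal convoluted and connecting tubule the calcium route split. Trpv5 and Trpv6, the luminal calcium channels, rose by 3.13 ± 0.20 and 2.41 ± 0.34. A second probe of Trpv5 changed by 1.01. Trpv6 read -6.32, -6.73 and -6.72 in DM+Sham and -3.59 and -4.63 in DM+RYGB, and lost its call without DM+Sham 1. Calb1 (calbindin-D28k, 1.36 ± 0.24) and the basolateral sodium-calcium exchanger Slc8a1 (1.57 ± 0.14) also rose; Calb1 was not called without DM+RYGB 1 or without DM+Sham 1. The other cytosolic calcium carrier, S100g (calbindin-D9k), read 0.54, 0.61 and 0.60 against -0.86 and -1.50 and fell by 1.75 on the log2 scale. Slc12a3, the thiazide-sensitive carrier that defines the distal convoluted tubule, was not called (0.78 ± 0.22, with 1.87 to 1.99 against 3.01 and 2.42).

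Among principal cell genes 4 of 23 were higher and 3 lower, and the counts moved when either DM+RYGB array was left out. The median change of the list was 0.63, and 0.66 without DM+RYGB 2, beside 0.57 and 0.61 for all genes tested. For genes with a symbol it was 0.377 with all arrays. Kcne1, a potassium channel subunit, read -3.75, -3.94 and -3.94 in DM+Sham and -0.56 and -1.11 in DM+RYGB, a change of 3.01 ± 0.19. Klk1, tissue kallikrein of the connecting tubule, read 3.36, 3.35 and 3.35 against 5.77 and 5.01, a change of 2.04 ± 0.27. Both were higher on each RYGB array than on any sham array, and both differed from the response in control rats. Gata3 rose by 1.46 ± 0.22, though not without DM+Sham 1. Sgk1, the kinase that keeps the sodium channel at the membrane, fell by 1.67 on the log2 scale, while the channel subunit Scnn1g was not called with both arrays (1.13 ± 0.19) and was without DM+RYGB 2. Aqp2, the vasopressin-regulated water channel, was not called (0.27 ± 0.35, and -0.62 with quantile scaling). Both urea carriers fell, with changes of -7.81 for Slc14a2 and -1.32 for Slc14a1; the latter turned to 1.19 with normexp correction. Slc14a2 changed by -8.65 in control rats too and was well above background on 1 of 2 DM+RYGB arrays. A dimmer probe of Slc14a2 changed by -1.95 in diabetic rats. Of 10 aquaporins, Aqp5 (2.21 ± 0.22) and Aqp8 (1.73 ± 0.33), both dim, were higher, Aqp8 not without DM+Sham 1 or DM+RYGB 1.

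Intercalated cells, which secrete acid or bicarbonate, had 5 higher members of 22 and 2 lower, or 9 and 2 without DM+RYGB 2. Slc26a4 (pendrin), the luminal chloride-bicarbonate exchanger of the type B cell, read 0.35, 0.40 and 0.40 in DM+Sham and 2.09 and 1.65 in DM+RYGB, a change of 1.49 ± 0.17. Its basolateral partner Slc4a9 (1.54 ± 0.24) and the receptor Oxgr1 (2.12 ± 0.28), which senses luminal oxoglutarate in these cells, rose with it. The proton pump subunits Atp6v1b1 (1.45 ± 0.19) and Atp6v1c2 (1.51 ± 0.21) also rose. Slc4a9 and Slc26a7 lost their calls without DM+Sham 1 and Slc26a4 with scan day as a block. Slc4a1, the exchanger of the acid-secreting type A cell and of red cells, was not called (0.09 ± 0.25), and Slc26a7 (-0.87 ± 0.23, but 0.38 with normexp) and the colonic-type proton-potassium pump Atp12a were lower. Atp12a read -0.93, -0.76 and -0.77 against -5.04 and -5.20, 19.4-fold lower.

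Podocytes form the filter at the outer wall of the glomerular capillary. Nphs1 (nephrin), a protein of their slit diaphragm, read 1.06, 0.83 and 0.83 in DM+Sham and 3.25 and 2.71 in DM+RYGB, a change of 2.03 ± 0.19 (1.85 with quantile scaling). Both RYGB arrays exceeded all sham arrays and also the Control+Sham arrays, which read 1.1 to 1.16. Ptpro, a podocyte phosphatase, rose by 1.29 ± 0.17 with all arrays but was not called without DM+Sham 1. Of 20 podocyte genes 3 were higher, these among them, 1 was lower (the collagen Col4a4, -1.21 ± 0.19) and 16 were not called; without DM+RYGB 2, 5 were higher. Not called were, among others, Wt1 (0.71 ± 0.20), the factor that keeps podocyte identity, and Podxl (0.98 ± 0.16), which was called without DM+RYGB 2. Dimmer probes of Wt1 changed by 1.37 and 1.43. The median of the list was 0.61, or 0.42 with quantile scaling. The summed podocyte signal was higher on both RYGB arrays, and its part in this result was not tested. In the vessels, Pecam1 (0.02 ± 0.15) was not called, Angpt1 rose by 1.09 ± 0.13 and Plvap fell by 0.96 on the log2 scale, out of 20 endothelial genes; Angpt1 was not called when either RYGB array or DM+Sham 1 was left out. The smooth muscle myosin Myh11 read -1.61, -1.57 and -1.61 against 0.50 and 0.09 and rose by 1.90 ± 0.16, while it fell in control rats after RYGB. The fibroblast receptor Pdgfra fell by 1.1 on the log2 scale.

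Of 21 tight junction genes 5 were lower and 1 higher, beside 14.1% lower and 7.01% higher of all genes with a symbol. The median change of the list was 0.05, and 0.30 without DM+RYGB 2. Cldn2, which forms the cation and water pore of the proximal tubule, read 0.56, 0.61 and 0.60 in DM+Sham and -0.83 and -1.38 in DM+RYGB, a change of -1.69 ± 0.18. Cldn1, found in the parietal cells of Bowman's capsule, changed by -2.39 ± 0.18 in diabetic rats and rose by 0.99 in control rats. Cldn23 read -0.08, -0.04 and -0.02 against -5.16 and -5.42, 37.6-fold lower. Cldn5, known from endothelium and podocytes, rose by 1.65 ± 0.14. These 4 genes did not overlap between the groups.

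The clock genes changed on both sides of the loop. BMAL1 and CLOCK form the activating pair of the daily clock; it turns on the Per and Cry repressors, the repressor Nr1d1 (REV-ERBalpha), Ciart (CHRONO) and the output factor Dbp, and REV-ERBalpha in turn represses Bmal1. Of 15 clock genes measured 4 were higher and 4 lower. Bmal1 read -0.97, -0.93 and -0.93 in DM+Sham and -4.04 and -3.70 in DM+RYGB, 7.59-fold lower, and a second probe changed by -2.19. Ciart read -3.00, -3.52 and -3.53 against 0.45 and 0.54, 13.5-fold higher. Nr1d1 read -4.51, -4.56 and -4.53 against -2.62 and -2.67, a change of 1.88 ± 0.11 (1.27 with quantile scaling). For all 3 genes both RYGB arrays stood close together and far from the sham arrays. Dbp, whose other probes changed by 2.32 and 2.65, rose by 1.61 ± 0.19, though it was not called with scan day as a block. Per3 (1.43 ± 0.26) was called higher with all arrays, and Clock (-0.50 ± 0.14) lower, but Per3 was not called when either RYGB array or DM+Sham 1 was left out and Clock not without DM+RYGB 2 or DM+Sham 1. Cry1 (-0.67 ± 0.16) fell. Npas2, a relative of CLOCK, changed by -1.28 ± 0.19 on its brighter probe and by 1.15 on another. Per1 (1.21 ± 0.24; 0.40 with quantile scaling) and Per2 (0.14 ± 0.12) were not called, though Per1 was without DM+RYGB 2.

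In control rats Bmal1 did not pass the test after RYGB (0.05) and Ciart rose by 1.5, and the difference between diabetic and control rats passed the test for Bmal1 (-2.98 ± 0.19), Ciart (2.26 ± 0.30), Nr1d1 (1.83 ± 0.15) and Dbp (1.81 ± 0.25). These genes cycle over the day and the hour of collection is not in the labels, so hour and operation cannot be told apart. The Ciart promoter is shown because it holds 3 copies of the E-box CACGTG, the motif that the BMAL1-CLOCK pair binds. It is read from base -120 to base -1 on the strand of the gene (RefSeq, GRCr8, chr2:186112247-186112366, minus strand), with the copies, which begin at bases -93, -35 and -21, in capitals. In the longer window searched, the 250 bases before the start on both strands, at least 1 copy was present in 5.8% of all promoters. Among tested genes with a symbol the share was 7.15%, and 1 of the 4 rising clock genes had a copy.
Ciart: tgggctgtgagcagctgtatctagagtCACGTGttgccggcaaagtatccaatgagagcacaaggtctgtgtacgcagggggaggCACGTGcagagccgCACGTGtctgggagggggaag

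**Figure D5:**
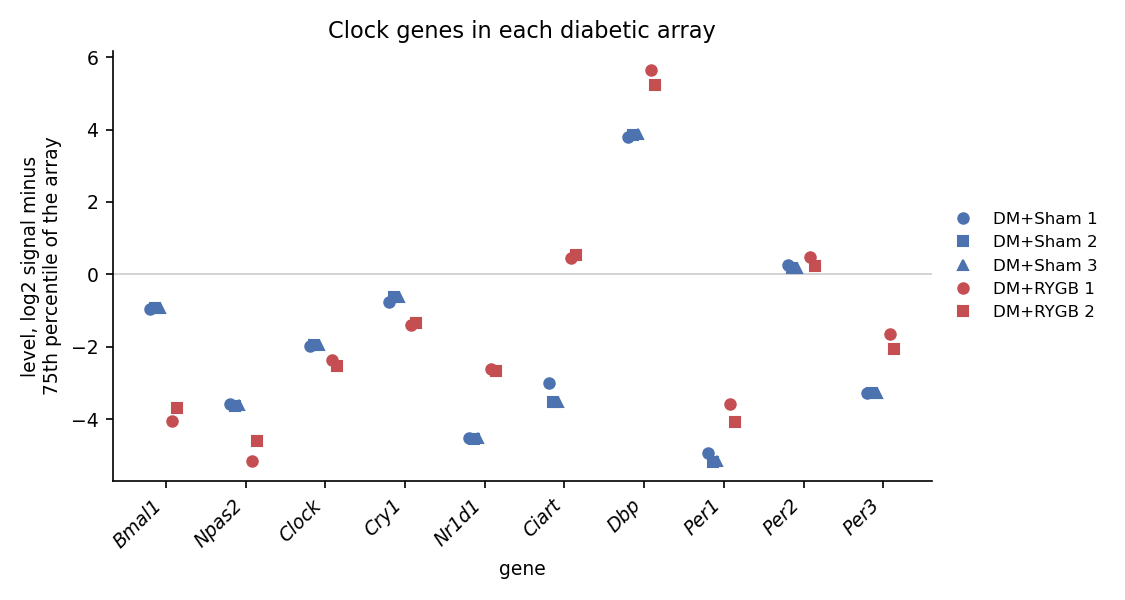
Level of 10 clock genes (horizontal axis) on each of the 5 diabetic arrays (points), as log2 signal minus the 75th percentile of the array. Bmal1 falls from about -0.93 to -4.04 and -3.70, and Ciart rises from between -3.53 and -3.00 to 0.45 and 0.54; Per2 overlaps between the groups' ranges, at 0.17 to 0.26 and 0.24 to 0.47.

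Genes of secreted plasma proteins, which the liver makes in bulk and tubules make in small amounts, went both ways. Of 20 such genes 3 were higher and 5 lower. The fibrinogen chains Fga (-3.18 ± 0.19) and Fgb (-2.40 ± 0.16) fell. Fga read 0.65, 0.69 and 0.68 in DM+Sham and -2.21 and -2.81 in DM+RYGB. Apoh (-2.91 ± 0.20) fell as well. Outside the list, so did Rbp4, the retinol carrier, at 2.23, 2.24 and 2.23 against -1.27 and -2.01 (14.6-fold lower), and Serpinc1, antithrombin, 14.2-fold lower. Gc, the vitamin D binding protein that megalin retrieves, rose from -6.32, -6.58 and -6.64 to -2.75 and -3.46. Alb (3.38 ± 0.34) and haptoglobin (Hp, 2.41 ± 0.26) rose, and both also rose in control rats after RYGB (2.95 and 2.27). The 2 directions within 1 list were both without overlap of the arrays, and the summed liver signal was 17.3 and 13.9 in DM+RYGB against 12.4 to 12.9 in DM+Sham.

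Bile acid genes were lower in 7 and higher in 3 of 21, or 11 and 2 without DM+RYGB 1. Slc27a5 and Baat activate bile acids and join them to taurine or glycine. Slc27a5 read 1.04, 1.07 and 1.08 in DM+Sham and -3.99 and -4.59 in DM+RYGB, 40.8-fold lower, and Baat was 12.6-fold lower. Both rose in control rats after RYGB, by 1.73 and 1.54. The uptake carriers Slc10a1 (-1.66 ± 0.11) and Slc10a2 (-0.83 ± 0.26) and the bile acid receptor FXR (Nr1h4, -0.97 ± 0.22) were lower. A second probe of Nr1h4 changed by -0.15. Slc10a2 lost its call without DM+RYGB 2 and without DM+Sham 1 and turned to 1.30 with normexp correction. Cyp27a1, which starts the acidic route of bile acid synthesis, rose by 1.51 ± 0.14. Fabp6, the ileal bile acid binding protein, rose by 2.89 ± 0.27 and was well above background on 2 of 3 DM+Sham arrays. Akr1d1 was called higher but was not well above background on any of the 5 arrays.

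Enzymes of drug and steroid metabolism were lower in 17 and higher in 4 of 48, and the counts moved when either DM+RYGB array was left out. The median change of the list was -0.05, and 0.08 without DM+RYGB 2, beside 0.57 and 0.61 for all genes tested. With all arrays it was 0.377 for genes with a symbol, and -0.04 for those in the top 3 deciles of signal. Soluble epoxide hydrolase (Ephx2), which clears the vasodilating epoxides of arachidonic acid, read 0.40, 0.36 and 0.36 in DM+Sham and -1.55 and -1.82 in DM+RYGB, a change of -2.06 ± 0.13. Cyp2e1, an ethanol- and ketone-inducible enzyme, changed by -1.61 ± 0.12, and Hsd17b2, which inactivates sex steroids, by -2.06 ± 0.24. Cyp2c11, the male-specific P450 of rat liver, rose by 2.61 ± 0.14 and fell by 2.81 in control rats. The ketosteroid reductase Akr1c2 had the largest rise among the genes named here that were called, from -6.32, -6.18 and -6.27 to 0.64 and -0.13, and Hsd3b2 rose by 2.02 ± 0.12 at a very low level, with its call lost without DM+Sham 1. Cyp1a1, the dioxin-inducible P450, was not called in diabetic rats (-0.54 ± 0.29) and rose in control rats (2.34).

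Cholesterol and fatty acid synthesis had 14 lower members of 43 and 1 higher. Dhcr7, the last enzyme of one branch of cholesterol synthesis, read -0.90, -0.95 and -0.93 in DM+Sham and -2.70 and -3.20 in DM+RYGB, a change of -2.03 ± 0.17. Tm7sf2, a sterol reductase earlier in the route, changed by -1.88 ± 0.20. The elongase Elovl2 changed by -2.43 ± 0.21, while the desaturase Fads1 rose by 1.69 ± 0.23.

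Injury markers moved both ways, 6 of 30 being higher and 6 lower; without DM+RYGB 1, 2 were higher and 8 lower. Havcr1 (KIM-1), the standard marker of damaged proximal tubule, read -1.61, -1.62 and -1.61 in DM+Sham and -2.92 and -3.10 in DM+RYGB, a change of -1.40 ± 0.11 (adjusted p = 0.00046). Spp1 (osteopontin) read 4.19, 3.73 and 3.72 against 2.51 and 2.07, a change of -1.67 ± 0.21. Havcr1 was already lower in DM+Sham than on the Control+Sham arrays, which read -1.03 to -0.95. Spp1 in DM+RYGB lay below the Control+Sham arrays, which read 3.54 to 3.74. Cd24 (-1.01 ± 0.19) fell too. Lcn2 (NGAL) was not called (-0.04 ± 0.15; -1.10 with quantile scaling). Tff3, a mucosal repair peptide, rose 12.8-fold, from -3.89, -4.05 and -3.98 to 0.09 and -0.64, and fell in control rats. Il18 (1.26 ± 0.24), Vim (1.08 ± 0.14) and Plaur (1.70 ± 0.19) rose with all arrays, yet each lost its call without DM+Sham 1 and without DM+RYGB 1, and Vim also without DM+RYGB 2.

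Among 35 matrix and fibrosis genes 8 were lower and 1 higher, or 9 and 5 without DM+RYGB 1. Fibronectin (Fn1) changed by -1.23 ± 0.12 on its brighter probe, at 1.97, 2.03 and 2.03 in DM+Sham and 0.87 and 0.67 in DM+RYGB, and by -0.21 on another. Col1a2 (-0.71 ± 0.15), the BMP antagonist Grem1 (-0.99 ± 0.18) and the membrane collagenase Mmp14 (-0.64 ± 0.11) fell. Tgfb2 changed by -1.88 ± 0.15 on 1 probe and 1.33 on another. Col1a1 (0.09 ± 0.14) and Tgfb1 (0.06 ± 0.12) were not called, and the sign of both depended on the scaling. A dimmer probe of Col1a1 changed by 0.92. Ccn1, a matrix protein that responds early to stress, rose by 1.41 ± 0.12.

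Of 37 inflammation genes 5 were higher and 4 lower. The neutrophil chemokine Cxcl1 read -4.03, -3.98 and -3.98 in DM+Sham and -1.58 and -1.60 in DM+RYGB, a change of 2.42 ± 0.10, which brought it to the range of the Control+Sham arrays (-1.63 to -1.52). Complement factor B (Cfb) read -1.33, -1.36 and -1.36 against 1.75 and 1.11, a change of 2.78 ± 0.20. Ccl7 rose by 2.17 ± 0.19. Tnf (-1.17 ± 0.21), Ccl3 (-1.06 ± 0.13) and the adaptor Myd88 (-0.97 ± 0.11) fell, and Ccl2 was not called (0.01 ± 0.13). With normexp Tnf and Ccl3 turned positive (0.69 and 0.14). Leukocyte markers gave 1 call each way of 27: the pan-leukocyte marker Ptprc fell by 0.47 on the log2 scale and Itgam, dim on all arrays, rose by 1.97 ± 0.28 with a call that was lost without DM+Sham 1, DM+Sham 3 or DM+RYGB 1. Their summed signal was 34.1 and 25.7 in DM+RYGB and 18.4 to 23.9 in DM+Sham; its part in the inflammation genes was not tested.

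Interferon-stimulated genes were higher in 8 and lower in 2 of 36, or 9 and 5 without DM+RYGB 2. Ifit2, an inhibitor of viral translation, read -2.02, -2.17 and -2.17 in DM+Sham and -0.80 and -0.68 in DM+RYGB, a change of 1.36 ± 0.11, which is the level of the Control+Sham arrays (-0.77 to -0.69). Ifit3 (1.99 ± 0.17), Rtp4 (1.79 ± 0.20), Usp18 (1.56 ± 0.19), Isg15 (1.20 ± 0.11) and Irf9 (1.1 ± 0.11), a subunit of the factor that drives these genes, rose. Usp18, Isg15 and Irf9 lost their calls without DM+Sham 1. Ifit1 was not called (-2.01 ± 0.77) and was not well above background on either RYGB array. After RYGB in control rats 14 members were lower and 1 higher, beside 5.49% and 6.93% of all genes. The test of the difference was passed upward in diabetic rats by 20 of the 36, beside 1635 of the 25250 genes tested.

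The title of the series concerns NADPH synthesis and AMPK, the energy-sensing kinase. Of 14 NADPH-producing enzymes 3 were lower and 1 higher, or 5 and 0 without DM+RYGB 1. H6pd, which makes NADPH in the endoplasmic reticulum, changed by -1.13 ± 0.13 on its brighter probe and by -0.34 on another. The isocitrate dehydrogenase Idh1 changed by -0.94 ± 0.14. Me1 was not called (-0.31 ± 0.15), except without DM+RYGB 2. Me2, the mitochondrial malic enzyme, rose by 2.48 ± 0.42, but not when DM+RYGB 1 was left out. Of 24 genes of AMPK and its regulators 3 were higher and 4 lower, and the counts moved when either DM+RYGB array was left out. The median change of the list was -0.007, and 0.007 without DM+RYGB 2, beside 0.57 and 0.61 for all genes tested. With all arrays it was 0.377 for genes with a symbol, and -0.04 for those in the top 3 deciles of signal. The catalytic subunits Prkaa1 (0.69 ± 0.11; 0.36 with quantile scaling) and Prkaa2 (0.12 ± 0.28) were not called. Prkaa2 read -2.44 on DM+RYGB 1 and -1.47 on DM+RYGB 2, on either side of DM+Sham (-2.10 to -2.07), and was called lower without DM+RYGB 2. The regulatory subunit Prkag1 rose by 0.99 ± 0.11 with both arrays, yet not when either of them or DM+Sham 1 was left out, and Prkag3 by 1.66 ± 0.15. The sestrins, stress proteins upstream of AMPK, split, with Sesn2 at -0.86 ± 0.16 and Sesn3 at 1.52 ± 0.32, the latter not without DM+RYGB 1. Transcript levels say nothing of the activity of the enzymes.

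Antioxidant genes and NADPH oxidases were lower in 11 and higher in 3 of 52, or 12 and 5 without DM+RYGB 2. Gpx3, the plasma glutathione peroxidase secreted by the proximal tubule, read 3.21, 3.12 and 3.12 in DM+Sham and 0.68 and 0.15 in DM+RYGB, 6.71-fold lower. Extracellular superoxide dismutase (Sod3, -1.16 ± 0.17), Txnrd1 (-0.97 ± 0.11) and Gsr (-0.99 ± 0.18), which reduce thioredoxin and glutathione with NADPH, fell too. A second probe of Txnrd1 changed by -0.30. Nqo1 (1.44 ± 0.15), Gclm (2.08 ± 0.53) and the thioredoxin inhibitor Txnip (2.34 ± 0.45), which responds to glucose, rose; Gclm was not called without DM+RYGB 1. Txnip read 1.58, 0.18 and 0.22 in DM+Sham and 3.20 and 3.26 in DM+RYGB, with DM+Sham 1 between the other sham arrays and the RYGB arrays, and it rose in control rats as well (2.10). Nox4, the main oxidase of the tubule, was not called (-0.59 ± 0.22, adjusted p = 0.059), except without DM+RYGB 1.

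In the cell cycle list 6 of 37 were lower and none higher, beside 14.1% and 7.01% of all genes with a symbol, and without DM+RYGB 2 the counts were 2 lower and 2 higher. In the fit with all arrays the mitotic motor Kif11 (-1.71 ± 0.17) had the largest change among them. Among insulin, growth hormone and IGF genes 3 of 32 were higher and 2 lower (5 and 4 when either RYGB array was left out): Igfbp2 (1.24 ± 0.15), Igfbp6 (1.42 ± 0.10) and Igfbp7 (2.75 ± 0.60) rose and Igf2r fell by 0.75 on the log2 scale. Igfbp6 lost its call without DM+Sham 1 and Igfbp7 without DM+RYGB 1. Igfbp1 fell by 0.52 on the log2 scale, with its call lost without DM+RYGB 2 or DM+Sham 1, and Igf1 was not called (0.04 ± 0.21). Chaperone genes gave 1 higher and 3 lower of 33, or 1 and 6 without DM+RYGB 2, with the calcium-binding chaperone Calr at -1.03 ± 0.10. The small chaperone Hspb8, which is abundant in heart, read -3.00 and -0.86 in DM+RYGB and rose by 2.82 ± 0.60, but not without DM+Sham 1. Of 28 immediate early genes 2 were lower, 5 without DM+RYGB 2, while 4 were higher without DM+RYGB 1. Jund, a subunit of the AP-1 factor, read 3.67, 3.70 and 3.70 in DM+Sham and 0.76 and 1.02 in DM+RYGB, 6.95-fold lower. In control rats it went the other way, from -0.18 to 0.27 in Control+Sham to 4.41 to 4.54 in Control+RYGB.

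The remaining lists gave these counts of calls with all arrays: citric acid cycle 1 higher and 1 lower of 20, proteasome 1 and 1 of 29, fat and adrenal 1 and 1 of 14, renin-angiotensin and kallikrein 2 and 2 of 18, mesangium and vascular smooth muscle 1 and 2 of 19, skeletal muscle 3 and 1 of 14, heart muscle 1 and 0 of 28, and red blood cells 0 of 12. The last 2 lists depended on the array: without DM+RYGB 1, 26 heart muscle genes were higher, and without DM+RYGB 2, 8 red blood cell genes were lower.

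Among the largest single rises, several genes were called higher after RYGB in diabetic but not in control rats. Msln (mesothelin), a surface protein of mesothelium and urothelium, read -6.50, -6.41 and -6.53 in DM+Sham and -0.52 and -1.03 in DM+RYGB, 52.3-fold higher, and it fell by 1.59 in control rats. It is listed with the urothelial genes, of which 4 of 14 were higher, Krt7 (1.89 ± 0.18) and Krt20 (2.69 ± 0.17) among them; how far the summed urothelial signal contributed was not tested. The secreted phospholipase Pla2g2a, at -7.15, -7.09 and -6.99 against -2.19 and -1.55, was 37.4-fold higher. Pnoc, the precursor of nociceptin, was 21.2-fold higher and fell by 2.78 in control rats. Others rose in both kinds of rat: Wfdc21 (4.91 ± 0.21 and 3.41), Tsg101 (5.39 ± 0.78 and 4.01), Rtn4rl1 (4.96 ± 0.58 and 3.13), Krcc1 (4.64 ± 0.70 and 4.10), Tma7 (4.48 ± 0.52 and 3.08), Supt16h (4.40 ± 0.61 and 4.32) and Klkb1 (4.25 ± 0.51 and 4.32). Apart from Wfdc21, none of these 7 passed the test of the difference, and in the other six DM+Sham 1 lay above DM+Sham 2 and 3, as for Krcc1 at -3.25 against -5.23 and -5.17. A second probe for Rtn4rl1 changed by 1.44.

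The largest falls included Fam111a, a protease that restricts viral replication and is mutated in a form of hypoparathyroidism. It read 0.11, 0.17 and 0.20 in DM+Sham and -5.81 and -5.40 in DM+RYGB, 53.9-fold lower, and a second probe changed by -5.14. Nrn1l (-4.16 ± 0.12), Aadac, a microsomal esterase (-4.01 ± 0.25), and Lect2 (-3.67 ± 0.14) followed, though Lect2 turned to 0.17 with normexp correction. Aadac read -2.97, -2.84 and -2.83 against -6.51 and -7.33. None of these 4 genes fell by as much in control rats, where the changes were 0.08, -0.74, -0.65 and 0.91, and each passed the test of the difference.

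Bypass did not give the same change with and without diabetes. The 2 comparisons share no array, but all Control+RYGB arrays held 1 position on their slides that no other array held, so the operation in control rats and slide position cannot be told apart. Of the 2632 genes higher after RYGB in diabetic rats, 753 (28.6%) were also higher in control rats, where 1750 genes (6.93%) were higher in all; these made up 43% of the latter. Of the 2761 lower genes, 272 (9.85%) were also lower in control rats, where 1387 (5.49%) were lower, 19.6% of the latter. The test of the difference was passed by 3676 genes (14.6%). In the 6 proximal tubule lists it was passed downward by 61 of 144 genes, beside 2041 of the 25250 genes tested. In the top 3 deciles of signal it was passed downward by 48 of 95 proximal genes and by 808 of 5145 genes with a symbol. In control rats 9 of the 144 were lower and 7 higher, beside the 5.49% and 6.93% of all genes. Slc15a1 differed by -4.26 ± 0.27, Cltrn by -3.30 ± 0.28 and G6pc1 by -2.84 ± 0.28, all 3 with levels in Control+RYGB above those in Control+Sham. Folh1 read 1.24 to 1.29 in Control+Sham, 1.85 to 1.97 in Control+RYGB and, as above, 0.08 to 0.16 in DM+Sham and -2.43 and -3.08 in DM+RYGB. For this peptidase the 4 groups formed 4 separate ranges, with the diabetic bypass rats lowest.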

How the data were processed

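Renal cortex RNA of 11 rat samples was hybridised to one-colour Agilent arrays, and the 5 arrays of the 2 diabetic groups carry the comparison. The deposited scanner files hold an intensity per spot that the authors extracted from their scans (Agilent Feature Extraction 11.0.1.1), background-subtracted per the file headers; the deposited value table holds log2 values of the same arrays, with every column centred on a median of 7.07, correlating at 0.989 to 0.997 with the scanner values over probes. The normalization behind that table is not given in the sources used here. It served as an alternative only.

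The log2 processed signal was averaged over the spots of one probe, for the 30367 probes that are no controls. It was set against the array's 75th percentile over all spots that are no controls, taken before averaging. No spot was marked saturated. A probe entered if 2 or more arrays marked it well above background (28489 did), and the brightest probe stood for its gene, giving 25250 genes, of which 14358 have a symbol; 12362 probes had none in the table used. limma 3.58.1 in R 4.3.3 fitted the means of all 4 groups with Benjamini-Hochberg adjustment over all genes. DM+Sham 2 and 3, and Control+RYGB 2 and 3, lay within spot noise of each other and each pair counted once, so 9 samples with 5 residual degrees of freedom set the precision. Calls had to hold under 3 scalings and on both DM+RYGB arrays; the difference between diabetic and control rats is limma's interaction contrast under the same 3 scalings. The steps were tested on simulated data.

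The members, the 48 gene lists and the named genes were chosen with earlier results of these data known. Named are the 12 largest rises and falls among called genes above background on all 5 arrays that also pass without DM+RYGB 2, up to 4 called members of each list by p, a set of genes named whatever their values, and further list members to account for a list. Replicate numbers of the diabetic groups did not pair the samples (correlations of deviations 0.0391 and 0.036). Alternatives covered background correction, scaling, filters, probes, averaging, scan batches, samples fitted and left-out arrays; leaving out DM+Sham 2 and 3 together and using the 75th percentile alone were chosen after seeing the data. The promoter shown came from RefSeq (GRCr8). Some genes that the rule would name are not reported here.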

Additional observations from a re-analysis of the deposited data

Results flagged for a closer look

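Of the 267 genes examined by name, 167 passed the test of the difference between RYGB in diabetic and in control rats, beside 14.6% of all genes; many were named because they were called in diabetic rats, so their share is no independent result. Of these, 30 were called in opposite directions in the 2 comparisons. The values that follow are the change in diabetic rats minus that in control rats, on the log2 scale. Over all genes 235 were called in opposite directions. All Control+RYGB arrays held a slide position of their own, so slide position cannot be told apart from the operation in control rats.

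Of these genes 13 fell in diabetic rats and rose in control rats. Bile acid conjugation held Slc27a5 (-7.08) and Baat (-5.20), and secreted proteins held Lect2 (-4.59), Fga (-4.15), Fgb (-3.56) and Sod3 (-2.43). Carriers and channels were Slc5a8 (-3.65) and Kcnj15 (-2.94). Enzymes were Hsd17b2 (-3.55) and Cyp2e1 (-2.71). The others were the AP-1 subunit Jund (-7.25), the growth factor Tgfb2 (-3.97), whose probes disagree, and the claudin Cldn1 (-3.38).

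The 17 that rose in diabetic and fell in control rats included 5 interferon-stimulated genes, Ifit3 (2.66), Usp18 (2.56), Isg15 (2.41), Ifit2 (2.10) and Irf9 (1.46). The chemokine Ccl7 (2.81), complement factor Cfb (3.56) and the repair peptide Tff3 (4.95) belonged to injury and inflammation. Urothelial and mesothelial markers were Msln (7.30) and Krt20 (3.57). The remaining genes were Pnoc (7.18), Slco1a1 (6.96), Fabp6 (5.64), Cyp2c11 (5.43), Gc (4.24), Myh11 (3.03) and Cldn5 (2.16).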

How the results depend on the processing

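Of 267 genes examined by name 224 were called, and 87 of them kept their call under each of the 20 alternatives that measured them. Some genes were not measured under the strictest probe filter. The 3 scalings taken alone are parts of the main call, so these alternatives could hardly lose a call. Each scaling alone made more calls than the demand for all 3: the median gave 4426 higher and 7340 lower, quantile scaling 5822 lower, the 75th percentile 10576 higher and the authors' deposited values 5949 lower. Normexp background correction gave 926 higher and 989 lower and 74 genes differing from control rats in place of 167; fitting only the diabetic groups, with 2 residual degrees of freedom, gave 774 and 792, and 40 in place of 67 lower proximal genes. Scan day as a block gave 1795 lower, leaving out DM+Sham 2 and 3 gave 1607 higher and 1601 lower, and a minimum of 2-fold left 841 lower. Leaving out 1 array at a time gave 2211 to 2835 higher, 1834 (without DM+Sham 1) to 3379 lower, 54 to 77 lower proximal genes and 144 to 187 genes differing from control rats.

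Among genes called with all arrays or under the alternative, the following turned direction, and the cause was not tested; a further 77 sign changes, in 24 genes, had no call under either setting. With the median alone, the uncalled genes Per2 (-0.47), Col1a1 (-0.52), Tgfb1 (-0.54), Ccl2 (-0.59) and Pecam1 (-0.59) turned negative; with quantile scaling alone, Aqp2 (-0.62) and Tgfb1 (-1.09); with the deposited table, Aqp2 (-0.68) and Tgfb1 (-1.0). With normexp, called falls turned positive for Clcn5 (0.40), Cyp2r1 (0.31), Osr2 (0.31), Cebpa (0.67), Cldn14 (0.52), Slc14a1 (1.19), Slc26a7 (0.38), Npas2 (0.51), Clock (0.077), Tgfb2 (0.20), Tnf (0.69), Ccl3 (0.14), Lect2 (0.17) and Slc10a2 (1.30). The mean of all probes gave 0.49 for Slc9a3. Prkaa2 read -0.36 without DM+RYGB 2 and 0.61 without DM+RYGB 1.

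With the replicate number as a block, 3437 genes were higher and 3476 lower, 74 proximal genes were lower and 198 genes differed from control rats; the numbers are shared as labels only. Signal near background limits the dim genes, whose median shift was 1.73 before quantile scaling.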
